A study of Mus musculus with 12 samples.

Results

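The keratin genes of MOC2, an oral squamous cell carcinoma line of the mouse, were described across 4 groups of RNA-seq libraries. Members were all protein-coding genes of the deposited count table whose symbol is Krt followed by a digit, which leaves out the keratin-associated proteins: 54 of 55421 Ensembl genes. The family was chosen by the counts of the paclitaxel and DMSO libraries labelled EV-deficient, among which Krt6a fell most, so that comparison, and every value of Krt6a that sets EV-deficient libraries against others, is given below as a description without a test. Of the 54 keratins, 48 had at least 1 count, 25 passed the low-count filter and could be tested, and 16 had a mean of at least 1 CPM (read counts scaled to a common library size) over the 12 libraries.

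Extracellular vesicles (EVs) are small membrane-bound packages released from cells, and the study asked how those of senescent tumour cells shape inflammatory responses. All 12 libraries come from MOC2 cells grown in vitro, in 4 groups of 3. The derivative MOC2-25, labelled EV-Proficient, and the derivative MOC2-27, labelled EV-Deficient and described as having vesicle release blocked genetically, were each sampled as controls (DMSO) and after 48 h of 600 nM paclitaxel. Paclitaxel stabilises microtubules and was given to induce senescence. The blocked gene is not named in the labels, and each EV label is carried by a single derivative, so the label and any other difference between the derivatives cannot be told apart. The labels do not say that replicates were separate cultures, and p-values then measure the spread between these libraries, which may be technical.

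Keratins are the intermediate filament proteins of epithelial cells. A filament is built from heterodimers of an acidic type I and a basic type II keratin, and the pair a cell makes marks its kind: KRT8 with KRT18 in simple epithelia, KRT5 with KRT14 in the basal layer of stratified epithelia, KRT1 with KRT10 in the layers above it, and KRT6 with KRT16 or KRT17 in wounded or stressed epidermis and in many squamous carcinomas. Other keratins build the hair shaft and the inner root sheath around it.

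Library totals ran from 23263472 to 62955757 counts, and a floor of 3 counts stood for 0.0477 to 0.129 CPM before scaling. Keratins took 0.523% to 0.887% of the counts of a library. The labelled cell type was checked against its defining markers: the epithelial genes Epcam, Cdh1, Cldn4, Cldn7 and Esrp1 were abundant (summed level of the 6 epithelial markers 1938 to 2439 CPM over the 12 libraries). Of the squamous markers, Krt5 and Trp63 reached at most 8 and 11 counts in any library and did not pass the filter. Krt14, Sfn and Dsg3 of the same list passed it, at 77.4 to 730, 48.6 to 360 and 1.08 to 7.81 CPM. Before any result that compares EV labels, 1 property of the table has to be stated: the differences between EV labels had opposite signs under DMSO and under paclitaxel in 67.1% of the 18108 genes tested. A row the authors added for a dngfr sequence crossed in the same way, at 5.29 to 11.4 CPM of unscaled library size in EV-proficient DMSO and 1.68 to 2.33 in EV-deficient DMSO libraries, against 2.60 to 4.0 and 10.9 to 14.2 under paclitaxel, and the row for gfp was at 0 counts in every library. The groups are named throughout as the deposited labels name them. An exchange of the EV labels within 1 treatment was not tested: it would turn the EV-label differences of that treatment around and would change which libraries each comparison of paclitaxel with DMSO sets side by side.

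The 54 genes lie in the family's usual tandem arrays. On mouse chromosome 11 (GRCm38, GENCODE M21 annotation), 27 type I genes lay between bases 99232761 and 100269871. On chromosome 15, 26 type II genes and Krt18, the only type I gene there, lay between 101347444 and 102032027. The promoters of 4 members are shown because the results turn on their levels: Krt8 and Krt18, the partners of the simple epithelial filament, which lie 23697 bases apart and point away from each other, and Krt20 and Krt27, type I genes of chromosome 11 whose differences between EV labels ran in opposite directions. Each window holds 250 bases before and 50 bases after the RefSeq start of the gene (GRCm38.p6), written 5′ to 3′ on the strand of the gene. Capitals mark matches to TATAAA, the TATA box, which was searched on both strands.
Krt8 (chr15:102004293-102004592, minus strand): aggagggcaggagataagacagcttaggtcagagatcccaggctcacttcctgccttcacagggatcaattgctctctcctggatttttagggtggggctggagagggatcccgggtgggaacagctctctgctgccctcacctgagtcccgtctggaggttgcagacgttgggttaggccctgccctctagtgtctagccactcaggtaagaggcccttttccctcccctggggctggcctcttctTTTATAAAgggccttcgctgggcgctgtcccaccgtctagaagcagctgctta
Krt18 (chr15:102027966-102028265, plus strand): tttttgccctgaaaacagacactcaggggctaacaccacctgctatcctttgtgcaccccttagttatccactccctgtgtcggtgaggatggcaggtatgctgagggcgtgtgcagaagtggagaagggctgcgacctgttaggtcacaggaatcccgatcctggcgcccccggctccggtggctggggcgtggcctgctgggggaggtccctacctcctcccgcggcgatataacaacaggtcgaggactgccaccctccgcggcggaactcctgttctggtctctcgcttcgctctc
Krt20 (chr11:99438104-99438403, minus strand): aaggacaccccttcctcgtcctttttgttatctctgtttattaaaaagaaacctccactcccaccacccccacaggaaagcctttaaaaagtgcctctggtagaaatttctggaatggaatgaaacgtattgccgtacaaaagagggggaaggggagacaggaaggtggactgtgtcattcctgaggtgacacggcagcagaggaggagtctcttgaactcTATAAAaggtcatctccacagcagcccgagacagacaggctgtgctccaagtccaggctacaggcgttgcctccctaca
Krt27 (chr11:99351069-99351368, minus strand): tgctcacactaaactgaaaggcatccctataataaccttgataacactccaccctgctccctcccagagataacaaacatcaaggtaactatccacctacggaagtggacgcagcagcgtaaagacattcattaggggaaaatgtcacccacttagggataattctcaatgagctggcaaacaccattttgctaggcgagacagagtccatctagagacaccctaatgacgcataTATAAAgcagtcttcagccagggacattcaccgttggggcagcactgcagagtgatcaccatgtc
The Krt20 match begins at position -29 and that of Krt27 at -15 relative to the start. The Krt8 window carries the match on both strands, overlapping, in the letters TTTATAAA. These matches begin at -3 and -1 and so lie across the start, not before it. The RefSeq starts of Krt8 and Krt18 lie inside their GENCODE genes. The Krt18 window has no match. A window was at hand for 36 of the 54 keratins (37 windows), not including Krt6a, Krt16, Krt17, Krt19 and Krt80, and 51.4% of these windows held TATAAA against 13.6% of all 32851 promoter windows of the same length. The AP-1 motif TGANTCA, searched in the same way, was found in 5.41% of keratin windows and 7.81% of all windows. The keratin share is 2 of 37 windows, both of them of Krt13. A match describes these letters alone and was not tied to any measured binding.

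The simple epithelial keratins made up most of the keratin RNA. Per kilobase of exon, averaged over the 12 libraries, Krt18 stood at 784 CPM, Krt8 at 750, Krt19 at 748 and Krt7 at 369. Krt14 followed at 163, Krt17 at 155, Krt6a at 39.1 and Krt80 at 21.9 CPM per kilobase. The length used was the union of all annotated exons, which lowers the values of Krt7 and Krt80. Their unions are 7049 and 6393 bases, against 4094 and 3919 bases in their longest transcripts. Without a length correction Krt7 had the highest mean, 2599 CPM. Krt7, Krt8, Krt18 and Krt19 together held between 82.7% and 92.9% of the summed keratin CPM of a library, and the lowest shares, 82.7% to 83.0%, belonged to the EV-deficient DMSO libraries. A level here is that of the whole culture, and fewer cells with a transcript cannot be told apart from less of it per cell.

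**Figure D1:**
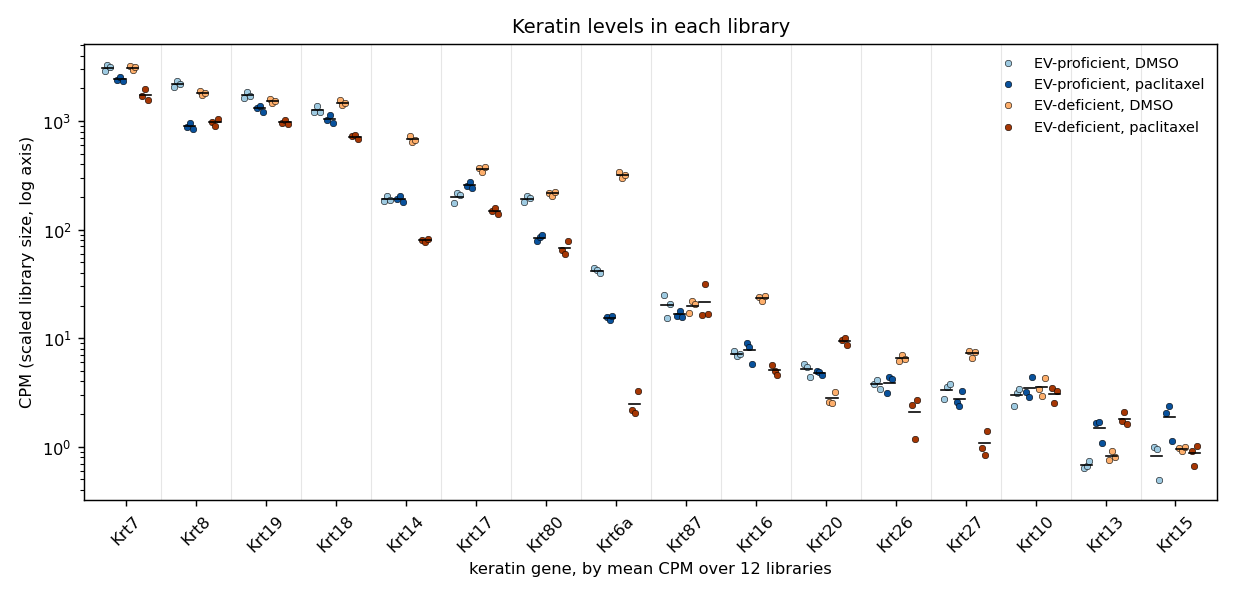
Level of the 16 keratins with a mean of at least 1 CPM in each of the 12 libraries (points, CPM on a log axis) and the mean of each group (bars, n = 3). Krt6a spans the widest range, from 2.03 to 336 CPM, while Krt10 stays between 2.36 and 4.37 CPM.

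Paclitaxel was first compared with DMSO in the EV-proficient libraries, which the choice of the family did not use. In edgeR's quasi-likelihood test, with Benjamini-Hochberg adjustment over all 18108 genes and a threshold of 0.05, 14 of the 25 tested keratins changed (56.0%), 8 of them higher and 6 lower, while 58.2% of all genes changed (31.1% higher and 27.1% lower). The keratin share is near that of all genes. The median log2 fold change of the 25 was 0.04, beside 0.05 over all genes tested. The keratins that fell were abundant ones, Krt6a, Krt7, Krt8, Krt18, Krt19 and Krt80, and those that rose were Krt17 and the low-level genes Krt4, Krt13, Krt15, Krt23, Krt42, Krt78 and Krt86.

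Of the 5 simple epithelial keratins, 4 fell under paclitaxel in the EV-proficient libraries and Krt20 did not pass the test. Krt8, the type II partner of Krt18, fell most. Krt8 stood at 2068, 2324 and 2199 CPM in the EV-proficient DMSO libraries and at 889, 952 and 844 in the EV-proficient paclitaxel libraries, against 1879, 1735 and 1824 in the EV-deficient DMSO libraries and 986, 892 and 1035 in the EV-deficient paclitaxel libraries. The paclitaxel libraries of either label, all between 844 and 1035 CPM, lay below every DMSO library. In the EV-proficient libraries the Krt8 log2 fold change was -1.30 ± 0.07 (SE, adjusted p 1.1e-12), that is, 2.45-fold lower. Between EV labels Krt8 was lower in the EV-deficient libraries under DMSO (log2 difference -0.28 ± 0.07 SE, adjusted p 0.00336) and did not differ detectably under paclitaxel (0.12 ± 0.07 SE, 95% interval -0.01 to 0.25, adjusted p 0.170), although it passed with upper-quartile scaling (0.21). A Krt8 pseudogene in the table, Krt8-ps, shares sequence with 16.9% of the 100-base windows of the Krt8 transcript, so reads from those stretches are uncertain in their assignment.

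Krt18 is the type I partner of Krt8. In replicates 1 to 3, the Krt18 level was 1221, 1381 and 1220 CPM in the EV-proficient DMSO group, 1019, 1138 and 954 in the EV-proficient paclitaxel group, 1561, 1414 and 1461 in the EV-deficient DMSO group and 726, 748 and 678 in the EV-deficient paclitaxel group. In the EV-proficient libraries paclitaxel lowered Krt18 by a log2 fold change of -0.30 ± 0.07 (SE, adjusted p 9.3e-04). With the EV-proficient label the mean ratio of Krt8 to Krt18 CPM was 1.73 ± 0.0658 (SD, n = 3) under DMSO and 0.865 ± 0.0248 (SD, n = 3) under paclitaxel, so the order of the 2 genes in CPM changed. In the EV-deficient libraries the ratio was 1.23 ± 0.0221 (SD, n = 3) under DMSO and 1.36 ± 0.167 (SD, n = 3) under paclitaxel, groups that overlap. Krt18 was slightly higher with the EV-deficient label under DMSO (0.21 ± 0.07 SE, adjusted p 0.0291) and lower under paclitaxel (-0.53 ± 0.07 SE, adjusted p 4.2e-06). The DMSO call did not hold without EV-proficient DMSO replicate 1 or 3 or without EV-deficient DMSO replicate 1 or 3 (0.17 to 0.22).

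Krt7 and Krt19, keratins of glandular and transitional epithelia, fell less than Krt8. Krt7 was measured at 2880, 3303 and 3158 CPM (EV-proficient DMSO), 2367, 2557 and 2328 CPM (EV-proficient paclitaxel), 3193, 2979 and 3160 CPM (EV-deficient DMSO) and 1713, 1986 and 1567 CPM (EV-deficient paclitaxel). Krt19 was measured at 1639, 1840 and 1715 CPM (EV-proficient DMSO), 1314, 1388 and 1214 CPM (EV-proficient paclitaxel), 1610, 1480 and 1515 CPM (EV-deficient DMSO) and 955, 1026 and 943 CPM (EV-deficient paclitaxel). Under either label the DMSO libraries all lay above the paclitaxel libraries for both genes. In the EV-proficient libraries the log2 fold change was -0.37 ± 0.07 (SE, adjusted p 2.2e-04) for Krt7 and -0.41 ± 0.06 (SE, adjusted p 9.7e-06) for Krt19. Under paclitaxel, the EV-deficient libraries were lower than the EV-proficient for Krt7 (-0.46 ± 0.07 SE, adjusted p 4.4e-05) and for Krt19 (-0.42 ± 0.06 SE, adjusted p 2.1e-05). Under DMSO Krt7 showed no difference larger than the spread (95% interval -0.15 to 0.14 on the log2 scale), and Krt19 missed the threshold (-0.17 ± 0.06 SE, adjusted p 0.0508), although it passed in 7 alternatives.

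Krt20 is a keratin of intestinal and urothelial umbrella cells. Krt20 stood at 5.73, 5.41 and 4.39 CPM in the EV-proficient DMSO libraries and at 4.96, 4.85 and 4.57 in the EV-proficient paclitaxel libraries, against 2.59, 2.54 and 3.22 in the EV-deficient DMSO libraries and 9.71, 10.1 and 8.63 in the EV-deficient paclitaxel libraries. The EV-deficient paclitaxel libraries were the highest and the EV-deficient DMSO libraries the lowest, with no overlap with the other groups. Krt20 was lower with the EV-deficient label under DMSO (log2 difference -0.90 ± 0.15 SE, adjusted p 1.5e-04) and higher under paclitaxel (0.98 ± 0.15 SE, adjusted p 2.0e-05). In the EV-proficient libraries paclitaxel gave -0.11 ± 0.15 (SE, adjusted p 0.557). In the test as run, it was the only keratin of the 24 tested between EV labels under paclitaxel that was higher with the EV-deficient label. Krt8 joined it with upper-quartile scaling, with a filter of 1 CPM in 3 libraries and without EV-deficient paclitaxel replicate 2. Krt87 joined it with no low-count filter.

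Of the 3 basal keratins, Krt5 was near the floor, with 23 counts over all libraries, and Krt14 was present without it. Krt14 stood at 182, 206 and 186 CPM in the EV-proficient DMSO libraries and at 192, 202 and 178 in the EV-proficient paclitaxel libraries, against 730, 645 and 669 in the EV-deficient DMSO libraries and 80.3, 77.4 and 82.5 in the EV-deficient paclitaxel libraries. The EV-proficient groups overlapped each other, the EV-deficient DMSO libraries lay above them and the EV-deficient paclitaxel libraries below. No effect of paclitaxel on Krt14 larger than the spread was found in the EV-proficient libraries (-0.00 ± 0.07 SE, 95% interval -0.13 to 0.13, adjusted p 0.988). Krt14 was higher with the EV-deficient label under DMSO (1.83 ± 0.07 SE, 3.56-fold, adjusted p 2.8e-14) and lower under paclitaxel (-1.25 ± 0.07 SE, 2.39-fold, adjusted p 1.2e-11). Of the other squamous markers, Sfn stood at 162 ± 17.8 CPM under DMSO and 121 ± 4.70 CPM under paclitaxel with the EV-proficient label, and at 328 ± 28.9 and 53.5 ± 4.27 CPM with the EV-deficient label (SD, n = 3 each). Dsg3 stood at 1.40 ± 0.233, 3.00 ± 0.520, 7.06 ± 0.744 and 1.55 ± 0.507 CPM in the same order (SD, n = 3 each). The summed level of the 5 squamous markers, most of which is Krt14 itself, was 335 to 390 CPM under DMSO and 302 to 331 under paclitaxel with the EV-proficient label, and 956 to 1098 and 127 to 141 with the EV-deficient label. The part of other cells or cell states in this was not tested.

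Krt15, a basal keratin of hair follicle stem cells and oesophagus, was far less abundant. In replicates 1 to 3, the Krt15 level was 0.999, 0.957 and 0.498 CPM in the EV-proficient DMSO group, 2.06, 2.39 and 1.13 in the EV-proficient paclitaxel group, 0.964, 0.917 and 0.987 in the EV-deficient DMSO group and 0.913, 0.671 and 1.02 in the EV-deficient paclitaxel group. The EV-proficient paclitaxel libraries were the highest, and the other 3 groups overlapped. Paclitaxel raised Krt15 in the EV-proficient libraries (1.20 ± 0.33 SE, adjusted p 0.00365), and under paclitaxel it was lower with the EV-deficient label (-1.12 ± 0.32 SE, adjusted p 0.00877). Without EV-proficient paclitaxel replicate 2 that difference between labels was -0.89 and no longer passed.

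The wound and stress keratins include Krt6a, for which the family was chosen. Krt6a is a type II keratin that keratinocytes switch on at wound edges. It lies on chromosome 15 from base 101689910 to 101694307 on the minus strand (GRCm38), between Krt6b and Krt5. Krt6a stood at 43.9, 42.6 and 39.5 CPM in the EV-proficient DMSO libraries and at 15.8, 14.7 and 15.9 in the EV-proficient paclitaxel libraries, against 336, 300 and 318 in the EV-deficient DMSO libraries and 2.16, 2.03 and 3.25 in the EV-deficient paclitaxel libraries. The 4 groups did not overlap: the EV-deficient DMSO libraries were highest, then EV-proficient DMSO, EV-proficient paclitaxel and EV-deficient paclitaxel. In the EV-proficient libraries, which the choice did not use, paclitaxel lowered Krt6a by a log2 fold change of -1.44 ± 0.09 (SE, 2.72-fold, adjusted p 3.9e-11). In the EV-deficient libraries the log2 fold change was -6.98 ± 0.12 (SE), or 126-fold, from 318 ± 17.8 to 2.48 ± 0.667 CPM (SD, n = 3), the value that chose the family. Between EV labels the log2 difference was 2.92 ± 0.09 (SE) under DMSO and -2.61 ± 0.12 (SE) under paclitaxel, also without a test, and the latter was -2.88 without EV-deficient paclitaxel replicate 3.

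Krt6b, the near copy of Krt6a, did not pass the low-count filter, and with no such filter it was called between EV labels under DMSO. It had 0 counts in every EV-proficient DMSO and every EV-deficient paclitaxel library, 3, 1 and 1 counts in the EV-proficient paclitaxel libraries and 6, 8 and 9 counts in the EV-deficient DMSO libraries. Krt6a shares 24.9% of its 100-base windows with Krt6b, so the division of reads between the copies is uncertain, though nearly all counts were given to Krt6a. An antisense gene, Gm49428, covers 19.5% of the exon bases of Krt6a in GENCODE M21. It has no row in the table, and whether counting used strand is not given in the sources used here.

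Krt16 and Krt17, type I partners of KRT6 in stressed epidermis, lie next to each other 7314 bases apart. Krt17 stood at 177, 217 and 207 CPM in the EV-proficient DMSO libraries and at 250, 276 and 240 in the EV-proficient paclitaxel libraries, against 368, 339 and 374 in the EV-deficient DMSO libraries and 147, 159 and 138 in the EV-deficient paclitaxel libraries. Krt16 stood at 7.67, 6.87 and 7.14 CPM in the EV-proficient DMSO libraries and at 9.11, 8.37 and 5.75 in the EV-proficient paclitaxel libraries, against 24.2, 22.1 and 24.5 in the EV-deficient DMSO libraries and 5.67, 4.95 and 4.61 in the EV-deficient paclitaxel libraries. For both genes the EV-deficient DMSO libraries were the highest and the EV-deficient paclitaxel libraries the lowest, and only for Krt17 were the EV-proficient groups apart. Krt17 rose under paclitaxel in the EV-proficient libraries (0.35 ± 0.08 SE, adjusted p 4.3e-04), while Krt16 did not pass the test there (0.12 ± 0.14 SE, 95% interval -0.15 to 0.39, adjusted p 0.482). Under DMSO both were higher with the EV-deficient label, Krt16 by a log2 difference of 1.71 ± 0.14 (SE, adjusted p 4.5e-09) and Krt17 by 0.85 ± 0.08 (SE, adjusted p 2.6e-08). Under paclitaxel both were lower with that label, Krt16 by -0.63 ± 0.14 (SE, adjusted p 0.00119) and Krt17 by -0.79 ± 0.08 (SE, adjusted p 7.2e-08).

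The ratio of Krt6a to its possible partners differed by group. Per Krt16, Krt6a stood at 5.81 ± 0.346 under DMSO and 2.08 ± 0.585 under paclitaxel with the EV-proficient label, and at 13.5 ± 0.469 and 0.499 ± 0.179 with the EV-deficient label (ratio of CPM, SD, n = 3 each). Per Krt17 the same ratio was 0.211 ± 0.0309, 0.0609 ± 0.00669, 0.882 ± 0.0303 and 0.0170 ± 0.00576 in that order. These ratios rest on Krt6a and are descriptions.

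**Figure D2:**
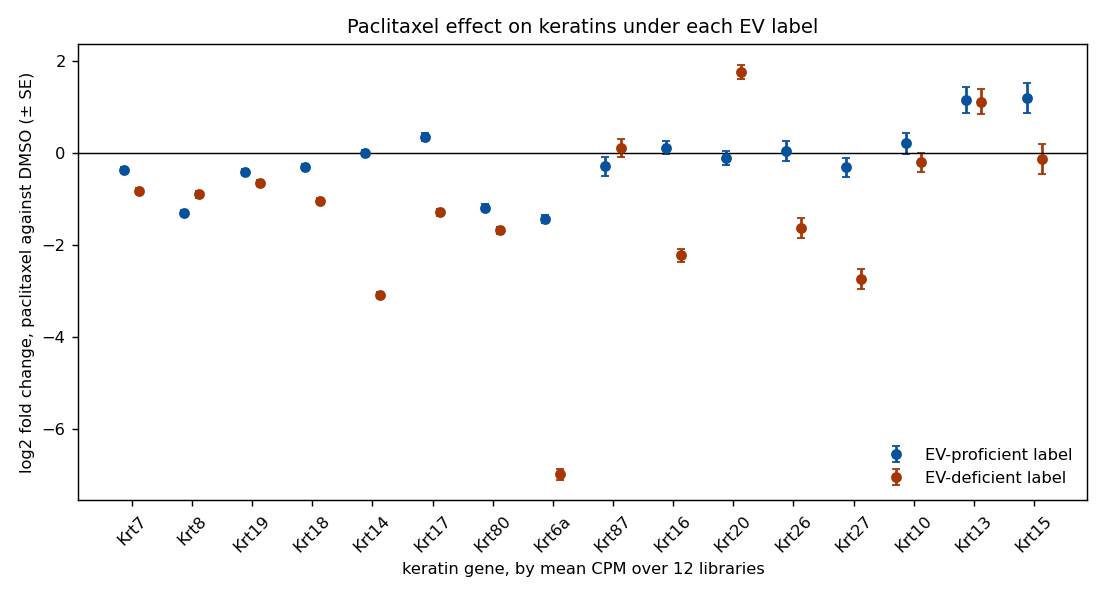
Log2 fold change of paclitaxel against DMSO (± SE) for the 16 keratins with a mean of at least 1 CPM, in the EV-proficient and in the EV-deficient libraries (3 against 3 each). Krt17 lies above 0 with the EV-proficient label (0.35) and below 0 with the EV-deficient label (-1.29), and Krt6a reaches -6.98 with the EV-deficient label, the value that chose the family.

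Among the suprabasal keratins, Krt80 and Krt10 were measured well enough to be given in every library. Krt80 is a type II keratin of differentiating epithelia. Krt80 was measured at 179, 202 and 196 CPM (EV-proficient DMSO), 78.8, 85.2 and 88.4 CPM (EV-proficient paclitaxel), 218, 206 and 223 CPM (EV-deficient DMSO) and 64.3, 59.3 and 78.4 CPM (EV-deficient paclitaxel). The paclitaxel libraries, at 59.3 to 88.4 CPM, lay below all DMSO libraries. Paclitaxel lowered Krt80 in the EV-proficient libraries (-1.19 ± 0.08 SE, 2.28-fold, adjusted p 9.3e-11), and under paclitaxel it was lower with the EV-deficient label (-0.32 ± 0.08 SE, adjusted p 0.00420). The DMSO difference between labels did not pass the test (0.17 ± 0.08 SE, adjusted p 0.151), although it passed with no low-count filter (0.21). Krt10, the keratin of differentiating epidermal layers, passed no test. Krt10 was measured at 2.36, 3.16 and 3.42 CPM (EV-proficient DMSO), 3.20, 2.90 and 4.37 CPM (EV-proficient paclitaxel), 3.39, 2.96 and 4.32 CPM (EV-deficient DMSO) and 3.45, 2.51 and 3.28 CPM (EV-deficient paclitaxel). All 4 groups overlapped, and its type II partner Krt1 had 8 counts in all. Krt78 rose under paclitaxel in the EV-proficient libraries (adjusted p 0.0436), a call lost without EV-proficient DMSO replicate 1 or 3 or without EV-proficient paclitaxel replicate 2 or 3. It was also lost with no low-count filter and in the fit on the compared groups alone. Without 1 of those libraries, 12 or 13 keratins passed in place of 14.

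Krt13 and Krt4, the type I and type II keratins of the layers above the basal one in oral and oesophageal mucosa, were both low. In replicates 1 to 3, the Krt13 level was 0.633, 0.670 and 0.732 CPM in the EV-proficient DMSO group, 1.64, 1.70 and 1.09 in the EV-proficient paclitaxel group, 0.749, 0.917 and 0.811 in the EV-deficient DMSO group and 1.71, 2.08 and 1.62 in the EV-deficient paclitaxel group. The paclitaxel libraries were above the DMSO libraries under either label. In the EV-proficient libraries Krt13 rose with a log2 fold change of 1.15 ± 0.28 (SE, 2.21-fold, adjusted p 0.00154), and no difference between EV labels passed (0.28 ± 0.29 SE under DMSO and 0.26 ± 0.26 SE under paclitaxel). Krt4 also rose under paclitaxel in the EV-proficient libraries and was higher with the EV-deficient label under DMSO (log2 difference 1.52). The paclitaxel call for Krt4 did not hold without EV-proficient DMSO replicate 1 or without EV-proficient paclitaxel replicate 1 or 2. The DMSO call did not hold without EV-proficient DMSO replicate 1 or 2 or without EV-deficient DMSO replicate 1 or 2, fits that left 7 or 8 of the 9 keratins called.

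Krt26 and Krt27 are type I keratins of the inner root sheath of the hair follicle and lie 7598 bases apart. Krt27 stood at 2.78, 3.54 and 3.75 CPM in the EV-proficient DMSO libraries and at 2.57, 2.37 and 3.28 in the EV-proficient paclitaxel libraries, against 7.66, 6.63 and 7.46 in the EV-deficient DMSO libraries and 0.969, 0.844 and 1.41 in the EV-deficient paclitaxel libraries. Krt26 stood at 3.80, 4.16 and 3.42 CPM in the EV-proficient DMSO libraries and at 3.16, 4.39 and 4.17 in the EV-proficient paclitaxel libraries, against 6.10, 6.99 and 6.42 in the EV-deficient DMSO libraries and 2.40, 1.17 and 2.67 in the EV-deficient paclitaxel libraries. The EV-deficient DMSO libraries were the highest and the EV-deficient paclitaxel libraries the lowest for both, and the EV-proficient groups overlapped. Neither passed the test for paclitaxel in the EV-proficient libraries. With the EV-deficient label, Krt27 was higher under DMSO (1.11 ± 0.19 SE, adjusted p 1.8e-04) and lower under paclitaxel (-1.32 ± 0.21 SE, adjusted p 5.6e-05). Krt26 was also higher under DMSO (0.77 ± 0.22 SE, adjusted p 0.0121) and lower under paclitaxel (-0.89 ± 0.23 SE, adjusted p 0.00358). The DMSO call for Krt26 did not hold without EV-proficient DMSO replicate 3 (0.71) or EV-deficient DMSO replicate 2 (0.72). Krt25, a neighbour with the same role, was not tested and had at most 19 counts in a library.

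Krt87, a type II hair keratin, passed in no comparison of the test as run. Krt87 stood at 24.8, 15.3 and 20.7 CPM in the EV-proficient DMSO libraries and at 16.1, 17.9 and 15.7 in the EV-proficient paclitaxel libraries, against 17.0, 21.9 and 20.5 in the EV-deficient DMSO libraries and 16.2, 31.3 and 16.6 in the EV-deficient paclitaxel libraries. EV-deficient paclitaxel replicate 2 was the highest library, and the groups overlapped. The difference between EV labels under paclitaxel was 0.36 ± 0.19 (SE, adjusted p 0.154), and -0.02 without that library. With no low-count filter 2 comparisons passed, paclitaxel in the EV-proficient libraries (-0.26) and EV labels under paclitaxel (0.33). Krt87 lies 724 bases beyond the end of Krt7, on the other strand. The ratio of Krt87 to Krt7 was 0.00661 ± 0.00198 under DMSO and 0.00684 ± 1.5e-04 under paclitaxel with the EV-proficient label, and 0.00639 ± 0.00103 and 0.0119 ± 0.00337 with the EV-deficient label (SD, n = 3 each). The part of reads from Krt7 in these values was not tested.

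The remaining tested keratins had means under 1 CPM. Under paclitaxel in the EV-proficient libraries, Krt42 rose (log2 fold change 1.52), and Krt23 and Krt86, which had at most 3 counts in every EV-proficient DMSO library, were at least 3.92-fold and 3.19-fold higher, against a floor of 3 counts per library. Both bounds rested on EV-proficient paclitaxel replicate 3, without which they were 1.71-fold and 1.66-fold. The Krt23 call did not hold without EV-proficient DMSO replicate 1 or 2 or without EV-proficient paclitaxel replicate 3. Krt86 shares 22.8% of its 100-base windows with Krt81 and is uncertain for that reason. Krt28, Krt36, Krt81 and Krt88 did not pass in the comparisons tested, although for paclitaxel in the EV-proficient libraries Krt36 passed with DESeq2, with no low-count filter, in the fit on the compared groups alone and without EV-proficient DMSO replicate 1, and Krt81 passed with upper-quartile scaling. Of the 29 keratins that were not tested, 6 had 0 counts in every library (Krt2, Krt32, Krt34, Krt72, Krt74 and Krt76), and the most any of them reached was 21 counts, for Krt90. The untested genes included 11 of 15 hair shaft, 6 of 9 root sheath and 5 of 8 suprabasal keratins.

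Taken by EV label, 9 of 24 tested keratins differed under DMSO, 7 higher and 2 lower in the EV-deficient libraries (37.5%, where 23.0% of all genes differed, 12.4% higher and 10.6% lower). Krt6a is not among the 24. The higher ones were Krt4, Krt14, Krt16, Krt17, Krt18, Krt26 and Krt27 and the lower ones Krt8 and Krt20. The median log2 difference of the 24 was 0.33, or 0.29 with genes at the floor set to their bound, beside 0.04 over all genes tested. Under paclitaxel, 11 of 24 differed, 1 higher and 10 lower (45.8%, where 37.8% of all genes differed, 16.0% higher and 21.8% lower), with a median of -0.42 beside -0.00 over all genes. Krt14, Krt16, Krt17, Krt18, Krt26 and Krt27 were among the higher under DMSO and the lower under paclitaxel, and Krt20 was the reverse. Signs were opposite under the 2 treatments for 17 of 24 keratins (70.8%), close to the 67.1% of all genes. These comparisons share libraries with the one that chose the family, and the members that passed the filter are those with counts in at least 1 group, so the counts describe the family and support nothing beyond it.

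**Figure D3:**
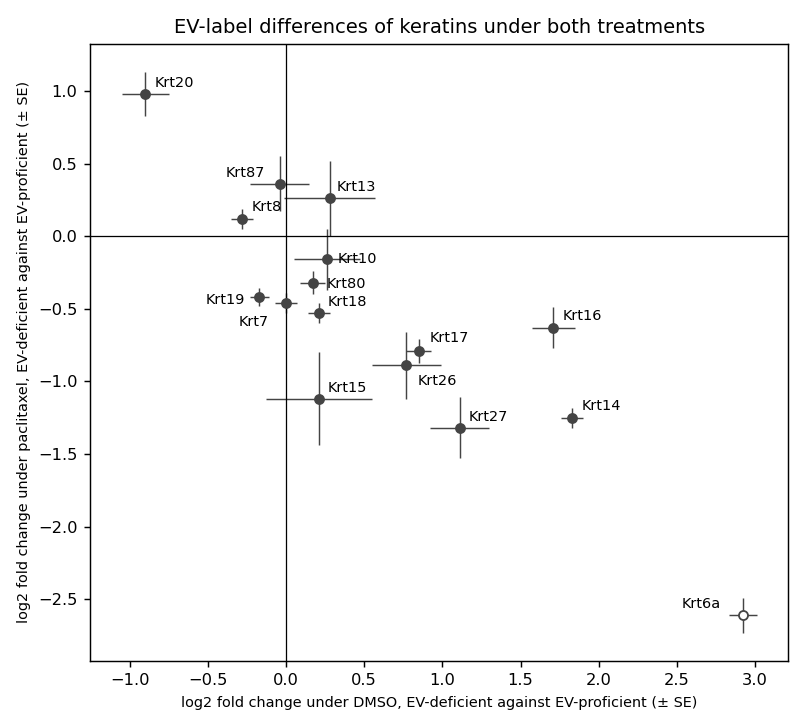
Log2 difference between EV-deficient and EV-proficient libraries (± SE, 3 against 3) under DMSO (x axis) and under paclitaxel (y axis) for the 16 keratins with a mean of at least 1 CPM. Krt14, Krt16, Krt17, Krt18, Krt26 and Krt27 lie to the lower right and Krt20 to the upper left, and the open point is Krt6a (2.92 and -2.61), which was not tested.

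As a description without a test, the median log2 fold change of paclitaxel in the EV-deficient libraries was -0.65 over the 25 keratins that passed the filter, beside 0.07 over all genes. After Krt6a, the largest decreases among the 16 keratins with a mean of at least 1 CPM were those of Krt14 (-3.09 ± 0.07 SE), Krt27 (-2.74 ± 0.21 SE) and Krt16 (-2.22 ± 0.14 SE). Among the same 16, Krt20 had the largest increase (1.77 ± 0.15 SE). Krt8 stood at -0.90 ± 0.07 (SE), against -1.30 in the EV-proficient libraries. Upper-quartile scaling moved the median of all genes in this comparison by 0.18 (log2). Nothing is read from these values, since they hold the comparison that chose the family.

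The summed level of all keratins followed the abundant members. With the EV-proficient label it was 8990 ± 558 CPM under DMSO and 6248 ± 383 CPM under paclitaxel, and with the EV-deficient label 9583 ± 398 and 4766 ± 224 CPM (SD, n = 3 each). The ranges of the paclitaxel libraries, 4569 to 6663 CPM, lay below those of the DMSO libraries, 8443 to 9963. The ratio of type II to type I keratin CPM was 1.63 ± 0.0413 under DMSO and 1.22 ± 0.0359 under paclitaxel with the EV-proficient label, and 1.34 ± 0.0277 and 1.45 ± 0.0117 with the EV-deficient label (SD, n = 3 each). CPM is not corrected for gene length, so the ratio compares groups and is not a ratio of molecules.

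**Figure D4:**
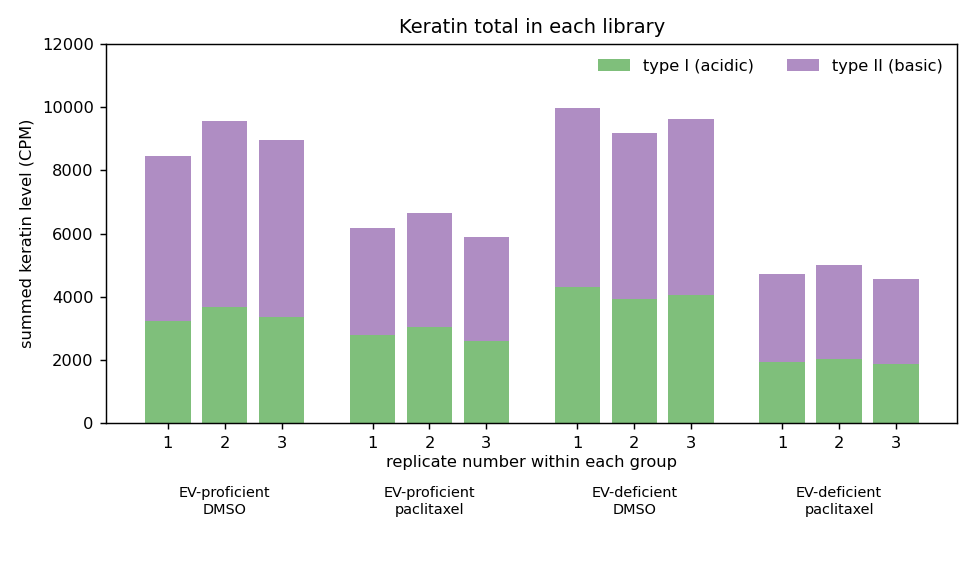
Summed keratin level in each library (bars from 0, CPM), split into type I and type II keratins, for replicates 1 to 3 of each group. The 6 paclitaxel libraries reach 4569 to 6663 CPM and the 6 DMSO libraries 8443 to 9963 CPM.

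Genes that work with keratins were taken from 4 lists. Of 13 linkers of filaments to desmosomes and other structures, 10 fell under paclitaxel in the EV-proficient libraries and the other 3 did not pass, in a comparison in which 27.1% of all genes fell. In all, 76.9% of the list passed, where 58.2% of all genes did, and its median log2 fold change was -0.55, beside 0.05 over all genes. Plec, the linker plectin, fell from 747 ± 52.3 to 294 ± 31.0 CPM (SD, n = 3; log2 fold change -1.34 ± 0.10 SE, adjusted p 3.4e-10). Dst, which anchors keratins at hemidesmosomes, went from 640 ± 99.2 to 393 ± 35.0 CPM (SD, n = 3; -0.70 ± 0.10 SE, adjusted p 5.8e-06). Macf1, a linker of actin and microtubules, did not pass (-0.14 ± 0.09 SE, adjusted p 0.204). Between EV labels, 2 linkers were higher and 3 lower under DMSO, and likewise 2 and 3 under paclitaxel (38.5% each, where 23.0% and 37.8% of all genes differed), with Dst lower under DMSO (-0.32 ± 0.10 SE, adjusted p 0.0281) and higher under paclitaxel (0.51 ± 0.10 SE, adjusted p 6.2e-04).

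Of 12 other cytoplasmic intermediate filament genes tested, 3 rose and 3 fell under paclitaxel in the EV-proficient libraries, with a median log2 fold change of 0.25. That is 6 of 12, where 58.2% of all genes passed. Vim, vimentin, the filament of mesenchymal cells that carcinoma lines often make beside keratins, fell from 1167 ± 58.6 to 361 ± 14.6 CPM there (SD, n = 3; -1.69 ± 0.06 SE, adjusted p 3.1e-15). With the EV-deficient label its level was 760 ± 32.7 CPM under DMSO and 715 ± 18.6 CPM under paclitaxel (SD, n = 3 each). Vim was thus lower with the EV-deficient label under DMSO (-0.62 ± 0.06 SE, adjusted p 5.2e-08) and higher under paclitaxel (0.98 ± 0.06 SE, adjusted p 4.7e-11). Nes, nestin, had the other order, higher under DMSO (1.02 ± 0.10 SE, adjusted p 8.0e-08) and lower under paclitaxel (-1.01 ± 0.10 SE, adjusted p 1.1e-07). Ina, a neuronal filament gene, passed no test (-0.02 ± 0.28 SE under paclitaxel with the EV-proficient label). The fibroblast markers Col1a1, Col1a2, Pdgfrb and Thy1 stayed at or below 1.80 CPM in every library. Pdgfra, of the same list, stood at 1.22 ± 0.232 CPM under DMSO and 4.25 ± 0.324 CPM under paclitaxel with the EV-proficient label, and at 1.77 ± 0.238 and 4.23 ± 0.529 CPM with the EV-deficient label (SD, n = 3 each).

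Of 12 cornified envelope genes tested, those of the crosslinked shell of dying keratinocytes, 5 rose and 2 fell under paclitaxel in the EV-proficient libraries (median log2 fold change 0.57), a share of 58.3% beside 58.2% of all genes. Under DMSO, 5 were higher with the EV-deficient label and the other 7 did not pass, where 12.4% of all genes were higher (median 0.87, beside 0.04 over all genes). With the EV-proficient label, Scel, sciellin, rose under paclitaxel from 16.3 ± 3.16 to 67.7 ± 3.08 CPM (SD, n = 3; 2.05 ± 0.14 SE, adjusted p 8.1e-11). With the EV-deficient label it stood at 47.9 ± 1.55 CPM under DMSO and 33.4 ± 8.84 CPM under paclitaxel (SD, n = 3 each). With the EV-proficient label Sprr1a, an envelope precursor, rose less (0.42 ± 0.10 SE, adjusted p 0.00110), and Sbsn, suprabasin, did not pass (-0.22 ± 0.14 SE, adjusted p 0.189). Under DMSO, Scel (1.55 ± 0.14 SE, adjusted p 3.1e-08) and Sbsn (1.57 ± 0.13 SE, adjusted p 1.2e-08) were higher with the EV-deficient label. Under paclitaxel 2 of the 12 were higher and 3 lower with that label (41.7%, where 37.8% of all genes differed), among them Sprr1a (0.72 ± 0.10 SE, adjusted p 8.3e-06) and Scel (-1.03 ± 0.13 SE, adjusted p 3.8e-06).

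Of 16 regulators of epidermal keratins tested, 7 rose and 5 fell under paclitaxel in the EV-proficient libraries, with a median log2 fold change of 0.33, that is 75.0% of the list, where 58.2% of all genes passed. Klf5, a transcription factor of basal and oesophageal epithelium, rose from 61.8 ± 4.15 to 112 ± 6.91 CPM (SD, n = 3; 0.86 ± 0.07 SE, adjusted p 1.1e-09). It was higher with the EV-deficient label under DMSO (0.31 ± 0.07 SE, adjusted p 0.00254) and lower under paclitaxel (-0.52 ± 0.07 SE, adjusted p 4.7e-06). Esrp1, an epithelial splicing factor, rose slightly (0.21 ± 0.07 SE, adjusted p 0.0169), and Nfe2l2, the oxidative stress factor NRF2, did not pass (0.07 ± 0.06 SE, adjusted p 0.315). In all, 3 regulators were higher and 2 lower with the EV-deficient label under DMSO, and 3 higher and 5 lower under paclitaxel (5 and 8 of 16, where 23.0% and 37.8% of all genes differed).

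Markers of other cell types were set beside these results. The 6 leukocyte markers summed to 6.65 to 9.71 CPM in DMSO and 22.6 to 40.1 CPM in paclitaxel libraries, nearly all of it Cd68, a lysosomal gene, with Ptprc at most 1.54 CPM and Cd3e at most 2 counts. The 3 endothelial markers summed to 1.69 to 4.26 CPM and the 3 skeletal muscle markers to 0.410 to 1.38 CPM.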

How the data were processed

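Poly(A) RNA was sequenced from 12 MOC2 libraries with a stranded kit, per the labels' protocols, and the authors deposited whole read counts per gene, not normalized, from paired reads of lane 4, per the file headers. The submitters' processing notes name STAR 2.5.0a and GRCm38. The counting program, annotation release and strand setting are not given in the sources used here. The 2 rows the authors added held up to 0.00142% and genes without a symbol up to 0.102% of a library's counts. The added rows were left out.

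Counts were tested in R 4.3.3 with edgeR 4.0.16: filterByExpr on the 4 groups (minimum count 10, 18108 genes kept), scaling by trimmed mean of M values (factors 0.89 to 1.15) and 1 quasi-likelihood model of group means over all 12 libraries (common dispersion 0.00956). Benjamini-Hochberg adjustment ran over all genes tested, with a threshold of 0.05. Errors of fold changes are standard errors, and 95% intervals are 1.96 standard errors. Floors cover counting error only. The members and lists were chosen with earlier results of these data known. Keratins with a mean of at least 1 CPM were given in every library, other tested keratins with at most 1 value, and from each companion list the 3 members with the highest mean. Chi-square statistics per degree of freedom between replicates of a group were 4.2 to 31.1 (12 pairs), so each pair differed by more than sampling noise. Positions came from GENCODE M21 and promoters from RefSeq (GRCm38.p6). The script was tested on simulated counts. The alternatives tried were upper-quartile scaling, median-of-ratios scaling, DESeq2 1.42.0, a block for the replicate number, no low-count filter or one of 1 CPM in 3 libraries, a fit on the compared groups alone, and each library left out.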

Additional observations from a re-analysis of the deposited data

Results flagged for a closer look

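Some of the 16 keratins with a mean of at least 1 CPM are listed here. In these, every EV-deficient library lay on one side of the EV-proficient libraries under DMSO and on the other side under paclitaxel. The EV-label difference under paclitaxel minus that under DMSO (log2) was -5.54 for Krt6a, -3.09 for Krt14, -2.43 for Krt27, -2.34 for Krt16, -1.66 for Krt26, -1.64 for Krt17, -0.75 for Krt18, -0.49 for Krt80 and 1.88 for Krt20. Krt17 also moved in opposite directions under paclitaxel, up with the EV-proficient and down with the EV-deficient label, a difference of -1.64. No test of these differences of effects is given, because they contain the comparison that chose the family. The share of all genes whose libraries separate in this way was not computed. A change of sign alone, a looser measure, was seen in 17 of 24 tested keratins without Krt6a (70.8%) and in 67.1% of all genes tested.

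The row the authors added for dngfr, which no comparison used, had counts in every library, the lowest being 93 in EV-proficient paclitaxel replicate 3, above the 3 counts that a count of 0 allows. Whether the dngfr levels and the keratin levels have a shared source was not tested.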

How the results depend on the processing

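Of 598 pairs of a tested result and an alternative, for the 16 keratins with a mean of at least 1 CPM, 558 kept their direction and their side of the threshold. Signs turned in 19, all for differences that did not pass: under paclitaxel in the EV-proficient libraries Krt14 (-0.00) was 0.06 with upper-quartile scaling, 0.03 with no filter, 0.01 with the 1 CPM filter and -0.06 to 0.06 with a library left out, which also gave -0.00 to 0.28 for Krt16 and -0.08 to 0.18 for Krt26. Between EV labels under DMSO, Krt7 (-0.00) was 0.04 with no filter, 0.00 with the replicate block and -0.05 to 0.04 with a library left out, and Krt87 was 0.01 with no filter. Leaving out a library gave -0.20 to 0.14 for Krt87 and -0.03 to 0.38 for Krt15. Under paclitaxel, it gave -0.02 to 0.52 for Krt87 and -0.27 to 0.00 for Krt10. With upper-quartile scaling the keratin total with the EV-deficient label was 9095 CPM under DMSO and 5139 CPM under paclitaxel. The causes were not tested.

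Calls were lost for Krt18 under DMSO with median-of-ratios scaling (0.19). Krt19 under DMSO passed in 7 alternatives, among them DESeq2 (-0.20) and the replicate block (-0.17). Called keratins numbered 10 to 15 for paclitaxel in the EV-proficient libraries (10 with the 1 CPM filter, which tested fewer genes), 7 to 11 between EV labels under DMSO and 10 to 13 under paclitaxel. Without EV-deficient paclitaxel replicate 3 the Krt6a difference of effects was -5.77. The replicate numbers do not pair the libraries (correlations of deviations of same-numbered libraries -0.081 to 0.097). With the replicate block 13 keratins were called for paclitaxel in the EV-proficient libraries (Krt78 was lost), 10 between labels under DMSO (Krt19 was gained) and 11 under paclitaxel. Keratins under 1 CPM rest on few counts, and differences there were often not detectable at this depth.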
